A study of Mus musculus with 24 samples.

Results

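The RNA levels of 7 genes of MHC class I molecules were followed in mouse bone marrow-derived macrophages: the light chain gene B2m and the heavy chain genes H2-K1, H2-D1, H2-M2, H2-M3, H2-Q4 and H2-T23. They were found by their symbols among 52636 genes of the deposited count tables, and all 7 had a row. The series held 24 libraries in 8 groups of 3. The R837 groups had 8 h of R837 (imiquimod, an agonist of the endosomal receptor TLR7) and were labelled TBK1-cKD ∆IKKe, TBK1-cKD ∆control, TBK1-WT ∆IKKe and TBK1-WT ∆control, and the untreated groups carried the same 4 labels. The series record calls cKD a TBK1 conditional knockout and ∆IKKe an IKKe knockout. They are called TBK1-cKD IKKe knockout, TBK1-cKD control, TBK1-WT IKKe knockout and TBK1-WT control below. TBK1 and IKKe (gene Ikbke) are related kinases that act downstream of innate immune receptors. The labels give neither the altered exons nor the way the knockouts were made, and every record's protocol names wild-type C57BL/6N mice, 3 individual animals and M-CSF culture; the sources used here give no age, sex or R837 dose. Which libraries came from the same animal is also not stated, so p-values measure the spread between these libraries.

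An MHC class I molecule is a heavy chain that holds a short peptide, paired with beta-2-microglobulin, the product of B2m. The peptide is cut by the proteasome, carried into the endoplasmic reticulum by the TAP transporter, loaded with the help of tapasin and shown to CD8 T cells at the surface. H2-K1 and H2-D1 encode classical heavy chains, which nearly all cells make, and interferons and NF-kB raise their transcription, with NLRC5 as a transactivator. H2-T23 encodes Qa-1, which shows peptides of other class I leader sequences to receptors of natural killer cells. H2-M3 encodes a heavy chain that shows N-formylated peptides. H2-Q4 and H2-M2 are nonclassical (class Ib) genes of the H2-Q and H2-M regions.

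In the GRCm38 annotation (GENCODE), B2m lies at chr2:122147686-122153083 on the plus strand. The 6 heavy chain genes lie within 3.49 Mb of chromosome 17. H2-K1 is at chr17:33996017-34000347 (minus strand), H2-D1 at chr17:35262730-35267499 (plus), H2-Q4 at chr17:35379617-35385290 (plus), H2-T23 at chr17:36029773-36032855 (minus), H2-M3 at chr17:37270220-37274484 (plus) and H2-M2 at chr17:37480851-37483552 (minus). The counts are of exonic reads. Heavy chain genes are near-identical in parts, reads were 50 bases long and single-end, and the kit did not mark strand, so reads may have been split between copies, and the levels of the H2-K1, H2-D1 and H2-Q genes are uncertain to that extent.

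The promoters of 4 of the genes are shown because the classical genes are known for an NF-kB site (kappa-B) beside an interferon-stimulated response element (ISRE), and because the level of H2-M2 varied most among the members. Each sequence is RefSeq's 250 bases before the transcript start (GRCm38.p6), read 5′ to 3′ on the gene's strand, with matches to either motif in capitals. The windows are chr17:37483555-37483804 (minus strand) for H2-M2, chr17:34000348-34000597 (minus) for H2-K1, chr17:35379367-35379616 (plus) for H2-Q4 and chr2:122147437-122147686 (plus) for B2m.
H2-M2: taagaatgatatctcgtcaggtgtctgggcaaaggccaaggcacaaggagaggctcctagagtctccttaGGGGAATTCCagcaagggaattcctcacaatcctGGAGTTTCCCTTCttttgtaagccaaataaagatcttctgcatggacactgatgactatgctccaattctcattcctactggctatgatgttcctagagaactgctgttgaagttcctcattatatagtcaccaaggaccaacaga
H2-K1: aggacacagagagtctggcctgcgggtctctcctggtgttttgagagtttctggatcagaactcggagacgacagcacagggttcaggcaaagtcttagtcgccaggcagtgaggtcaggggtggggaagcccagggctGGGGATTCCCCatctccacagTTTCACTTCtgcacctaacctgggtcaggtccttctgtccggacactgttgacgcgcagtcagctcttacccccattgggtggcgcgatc
H2-Q4: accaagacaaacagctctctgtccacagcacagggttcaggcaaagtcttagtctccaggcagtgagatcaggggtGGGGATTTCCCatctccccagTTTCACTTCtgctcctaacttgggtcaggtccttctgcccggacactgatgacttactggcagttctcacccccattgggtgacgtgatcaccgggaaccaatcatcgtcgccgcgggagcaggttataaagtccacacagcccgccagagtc
B2m: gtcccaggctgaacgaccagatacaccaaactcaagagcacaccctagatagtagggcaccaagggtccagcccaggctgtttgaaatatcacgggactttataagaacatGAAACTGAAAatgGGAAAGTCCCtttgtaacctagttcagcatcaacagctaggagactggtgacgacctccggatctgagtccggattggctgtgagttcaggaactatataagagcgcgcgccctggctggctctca
Both strands were searched for the usual 10-base degenerate kappa-B consensus, for the ISRE-like letters GAANNGAAA, with an additional A allowed before the gap, and for CCAAT. All 7 members had a RefSeq promoter, and a second start listed for H2-K1 was not counted. An ISRE-like match stood in 7 of 7 members and in 8.82% of 32851 promoters of the same length. A kappa-B match stood in 6 of 7 members, all but H2-T23, and in 3.90% of promoters. Both stood in 6 members and in 0.353% of promoters, and CCAAT in 7 members and 33.8% of promoters. In H2-K1, H2-D1, H2-Q4 and H2-M3 the kappa-B match lay upstream of the ISRE-like match without overlap, while in B2m the ISRE-like match was the upstream one. H2-M2 had 2 kappa-B matches, at -180 to -171 and at -146 to -137 from the start, and its ISRE-like match at -142 to -134 overlapped the second of them. A match is a description of letters, and binding was not measured.

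**Figure D1:**
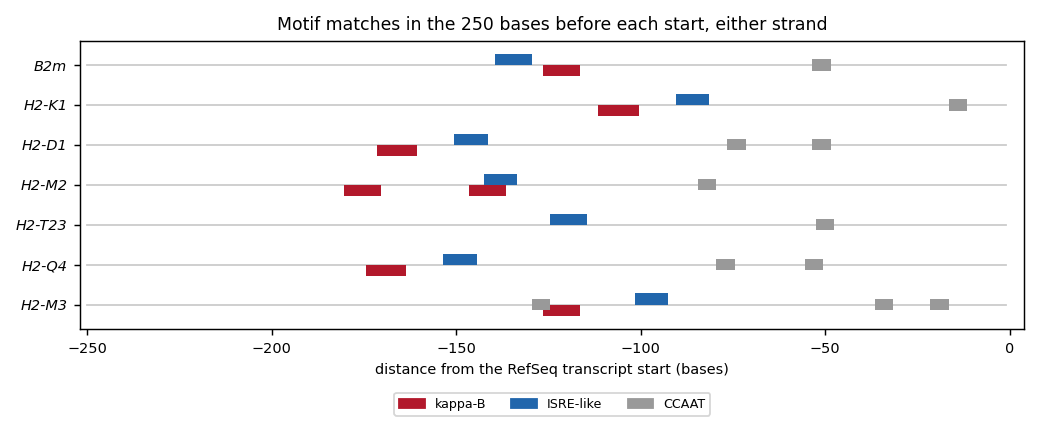
Positions of kappa-B, ISRE-like and CCAAT matches (colours) in the 250 bases before the transcript start of each gene; the horizontal axis is the distance from the start in bases. A kappa-B match is drawn in 6 of 7 genes, and in H2-M2 alone among the 7 it overlaps the ISRE-like match.

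Libraries held 19727746 to 41323219 gene counts, and 14681 genes passed the count filter, with all 7 members among them. The macrophage label was checked first: 8 of 8 macrophage markers had counts in every library, with a summed level of 18210 to 32523 CPM (counts scaled to the library's total). The summed levels of 6 neutrophil (0.122 to 3.60 CPM), 6 dendritic cell (0.103 to 1.56), 7 lymphocyte (0.0977 to 1.74), 5 mast cell and basophil (0 to 0.269) and 4 erythroid markers (0 to 0.149) were near 0, and Hbb-bs and Tpsb2 were at 0 throughout. The level of 5 stromal markers was 13.2 to 52.3 CPM. The nuclear RNAs Malat1, Neat1 and Xist split the libraries into 14 with a mean log2 CPM of 8.94 to 9.46 and 10 with 5.25 to 5.64. All untreated libraries were of the high level, as were 2 R837 libraries, TBK1-cKD IKKe knockout replicate 3 and TBK1-WT control replicate 1. TBK1-cKD control R837 replicate 2 had the fewest counts.

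The targeted genes were looked at next. Levels are given as RPKM, in which counts are divided by gene length and by library total, here with the totals multiplied by edgeR's TMM (trimmed mean of M) factors. Ikbke was 23.2 to 24.6 RPKM in untreated libraries labelled TBK1-cKD IKKe knockout, against 21.6 to 22.99 RPKM in untreated TBK1-cKD control libraries. In TBK1-WT cells it was 10.4 to 10.8 RPKM in untreated IKKe knockout libraries and 17.8 to 18.1 RPKM in untreated control libraries. After R837 it was 23.5, 24.99 and 78.4 RPKM in libraries labelled TBK1-cKD IKKe knockout, the 78.4 in replicate 3, against 72.2 to 74.8 RPKM in TBK1-cKD control libraries. It was 21.3 to 23.97 RPKM in R837 TBK1-WT IKKe knockout libraries and 66.5, 70.3 and 122.6 RPKM in R837 TBK1-WT control libraries, the 122.6 in replicate 1. Ikbke RNA in untreated libraries labelled TBK1-cKD IKKe knockout, and in replicate 3 after R837, was not below that of like-treated TBK1-cKD control libraries. Replicate 3 (78.4 RPKM) and TBK1-WT control replicate 1 (122.6 RPKM) were the 2 R837 libraries of high nuclear RNA level. All R837 TBK1-cKD control libraries were of low level, so replicate 3 had no TBK1-cKD control library of its own level beside it. Untreated Tbk1 was 29.0 to 30.0 RPKM in libraries labelled TBK1-cKD IKKe knockout and 24.3 to 25.2 RPKM in TBK1-cKD control, against 33.2 to 34.4 RPKM in TBK1-WT control. Because the altered exons are not given, RNA counts do not settle these labels, and the libraries labelled TBK1-cKD IKKe knockout are called the double-labelled libraries from here on.

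B2m was the most abundant member, at 2064 to 6053 RPKM over the 24 libraries. The classical heavy chains followed, at 740 to 1783 RPKM for H2-D1 and 428 to 1804 RPKM for H2-K1. H2-T23 ranged from 62.9 to 222.2 RPKM, H2-Q4 from 16.7 to 90.8 RPKM and H2-M3 from 19.8 to 42.6 RPKM. H2-M2 had the widest range among the members, 1.22 to 295 RPKM. The ratio of the highest to the lowest group mean was 208 for H2-M2, 4.71 for H2-Q4, 3.86 for H2-K1, 3.21 for H2-T23, 2.68 for B2m, 2.16 for H2-D1 and 1.84 for H2-M3. For all 7 members the highest of the 8 groups was R837 double-labelled, and its 3 libraries lay above every library of the next group, as was so for 10.3% of all genes. For 6 members the lowest mean was in untreated TBK1-cKD control libraries, and for H2-M2 it was in untreated TBK1-WT control libraries. For H2-D1, H2-M3, H2-T23 and H2-M2 the libraries of the lowest group overlapped those of the group next to it.

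Between these ends the order of the 8 groups differed from gene to gene. For H2-M2 it went from R837 double-labelled (mean 276 RPKM ± 22.3 SD, n = 3) over untreated double-labelled (168 ± 4.71) and R837 TBK1-cKD control (96.96 ± 6.94) to R837 TBK1-WT IKKe knockout (44.1 ± 3.05) and R837 TBK1-WT control (43.1 ± 5.62), then to untreated TBK1-cKD control (3.46 ± 0.398), TBK1-WT IKKe knockout (1.34 ± 0.0528) and TBK1-WT control (1.33 ± 0.119). The neighbours overlapped only at the TBK1-WT pairs, R837 and untreated. H2-Q4, H2-T23 and H2-M3 had untreated double-labelled libraries second as well, at means of 49.55, 122 and 32.3 RPKM, and those of H2-T23 and H2-M3 overlapped the group at the next place. For H2-K1, H2-D1 and B2m the second place went to R837 TBK1-WT IKKe knockout libraries, at means of 1152, 1299 and 4188 RPKM. For H2-D1 these libraries overlapped those at the next place, the untreated double-labelled ones (mean 1279 RPKM). Untreated TBK1-WT IKKe knockout libraries stood above untreated TBK1-WT control libraries, without overlap, for B2m, H2-K1, H2-D1, H2-M3, H2-Q4 and H2-T23. The same was so for 8.34% of all genes, and no gene passed an adjusted p of 0.05 in this comparison (edgeR). H2-T23 was the least separated member, with 5 of its 7 neighbouring pairs overlapping.

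**Figure D2:**
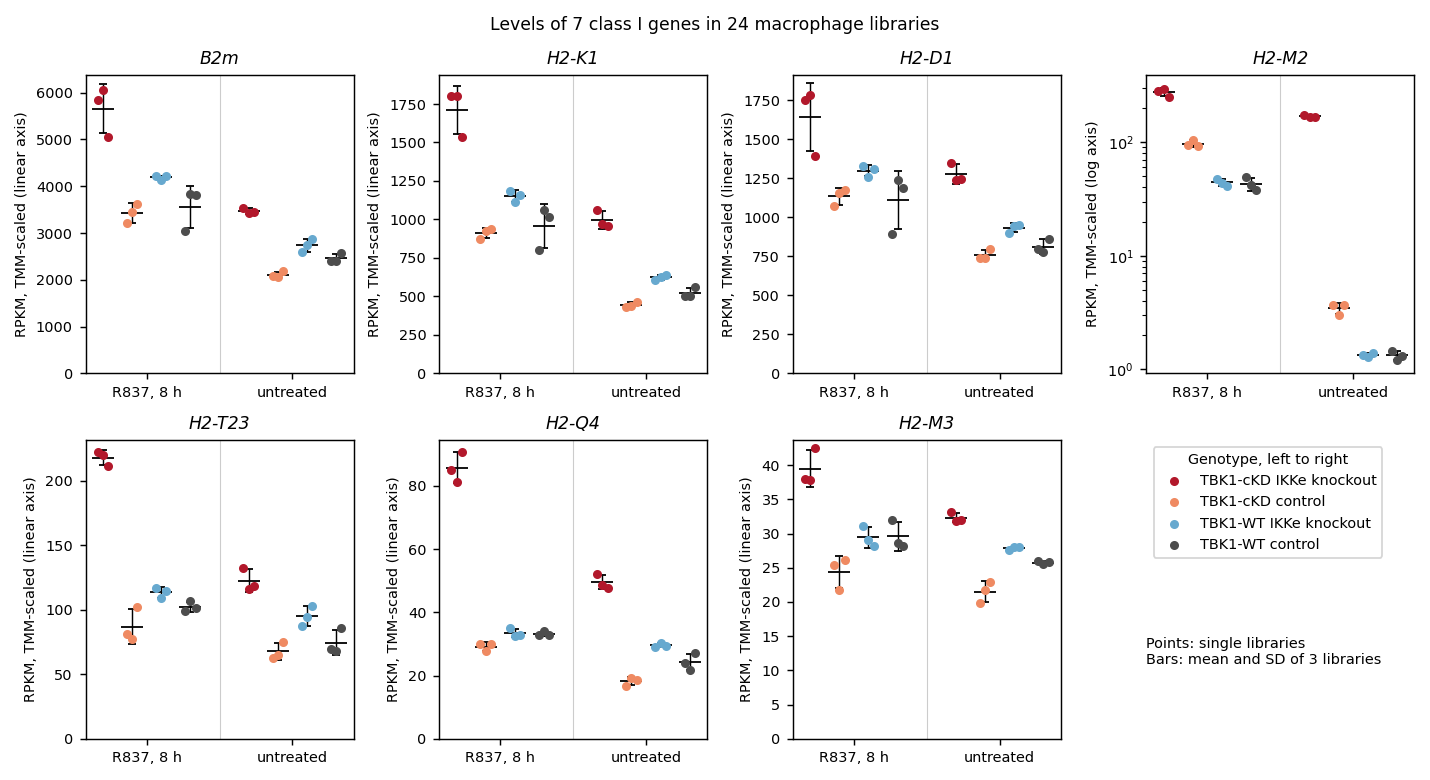
TMM-scaled RPKM (vertical axes, logarithmic for H2-M2 and linear from 0 for the others) of each gene in the 24 libraries, R837 at the left and untreated at the right of each panel, with colours for the 4 genotypes; points are libraries and bars the mean and SD of 3. The double-labelled libraries are the highest at each treatment, and untreated H2-M2 separates them (165 to 174 RPKM) from the other untreated libraries (1.22 to 3.71 RPKM).

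H2-M2 was higher in untreated double-labelled macrophages than in any other untreated group. Its levels there were 173.6, 164.8 and 166.4 RPKM, from 6875 to 9931 counts. They were 3.71, 2.998 and 3.66 RPKM in TBK1-cKD control libraries, 1.34, 1.29 and 1.40 RPKM in TBK1-WT IKKe knockout libraries and 1.46, 1.22 and 1.32 RPKM in TBK1-WT control libraries. The double-labelled libraries overlapped with none of these, and the TBK1-cKD control libraries lay above both TBK1-WT groups, which overlapped each other. Against TBK1-WT control the log2 change was 6.98 ± 0.12 (SE; 126-fold, adjusted p = 8.43e-20, edgeR quasi-likelihood test with Benjamini-Hochberg adjustment) in double-labelled macrophages. It ranked 7 by size among 14681 genes. In TBK1-cKD control macrophages it was 1.38 ± 0.12 (2.60-fold, adjusted p = 2.87e-07), and in TBK1-WT IKKe knockout macrophages 0.016 ± 0.130 (adjusted p = 1).

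After R837, H2-M2 stood at 282.4, 294.9 and 251.6 RPKM in double-labelled libraries. It stood at 94.3, 104.8 and 91.7 RPKM in TBK1-cKD control libraries, 47.4, 43.5 and 41.4 RPKM in TBK1-WT IKKe knockout libraries and 49.2, 41.8 and 38.1 RPKM in TBK1-WT control libraries. The order of the untreated groups was thus kept, with the TBK1-WT groups overlapping and the others apart. Untreated double-labelled libraries lay above every R837 library of the other 3 genotypes. Against R837 TBK1-WT control the log2 change was 2.68 ± 0.09 (6.41-fold, adjusted p = 1.38e-14, edgeR) in double-labelled and 1.17 ± 0.09 (2.25-fold, adjusted p = 7.46e-08) in TBK1-cKD control macrophages. It was 0.033 ± 0.09 (adjusted p = 0.953) in TBK1-WT IKKe knockout macrophages.

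As a share of the summed RPKM of the 6 heavy chains, H2-M2 made up 6.36% ± 0.149 (SD, n = 3) in untreated double-labelled libraries and 0.0913% ± 0.00978 in untreated TBK1-WT control libraries. After R837 the shares were 6.96% ± 0.195 in double-labelled and 1.94% ± 0.551 in TBK1-WT control libraries. The classical chains held most of the sum. H2-D1 was 48.3% ± 0.19 in untreated double-labelled and 55.6% ± 0.37 in untreated TBK1-WT control libraries, and H2-K1 37.6% ± 0.310 in the double-labelled and 35.8% ± 0.320 in the TBK1-WT control libraries. The summed heavy chain level was 2646 ± 135 RPKM in untreated double-labelled and 1460 ± 89.2 RPKM in untreated TBK1-WT control libraries. B2m was 1.31 ± 0.0447 times that sum in untreated double-labelled libraries and 1.69 ± 0.0392 times in untreated TBK1-WT control libraries, without overlap.

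The other 6 members were also higher in untreated double-labelled than in untreated TBK1-WT control macrophages. With H2-M2, 7 of 7 members were called higher, where 8.52% of the 14681 genes were. The double-labelled libraries lay above the control libraries for all 7, as they did for 25.1% of all genes tested. The largest of the other changes was that of H2-Q4, whose levels were 52.1, 48.8 and 47.8 RPKM in double-labelled against 23.8, 21.9 and 27.0 RPKM in TBK1-WT control libraries, without overlap. Its log2 change was 1.03 ± 0.07 (adjusted p = 6.51e-10, edgeR). The classical H2-K1 had 1061, 968.5 and 956.8 RPKM in double-labelled and 503.3, 504.7 and 558.3 RPKM in TBK1-WT control libraries, again apart, and its log2 change was 0.93 ± 0.09 (adjusted p = 7.94e-08). The Qa-1 gene H2-T23 had 132.6, 115.9 and 118.7 RPKM in double-labelled and 69.5, 68.2 and 85.8 RPKM in TBK1-WT control libraries. H2-D1, the other classical gene, had 1351, 1239 and 1247 RPKM in double-labelled and 795.6, 777 and 864.2 RPKM in TBK1-WT control libraries. H2-M3 had 33.1, 31.8 and 32.0 RPKM in double-labelled and 25.9, 25.5 and 25.8 RPKM in TBK1-WT control libraries, and none of the 3 genes had overlapping groups. H2-T23 rose by 0.72 ± 0.10, H2-D1 by 0.65 ± 0.10, B2m by 0.50 ± 0.08 and H2-M3 by 0.33 ± 0.07 on the log2 scale, with adjusted p-values of at most 0.00318 (edgeR). In the same libraries the summed macrophage markers were 24656 to 25805 CPM in double-labelled and 18210 to 19630 CPM in TBK1-WT control macrophages, and the stromal markers 13.2 to 18.9 CPM in double-labelled and 34.9 to 41.8 CPM in TBK1-WT control macrophages. The neutrophil markers summed to 0.242 to 0.493 CPM in double-labelled and 2.02 to 3.05 CPM in TBK1-WT control macrophages. Of the 8 macrophage markers, 6 were called higher in double-labelled macrophages. Of the 3 neutrophil markers tested 2 were called lower, as were 2 of the 5 stromal markers. The part of these in the results was not tested, and in bulk RNA fewer cells of a type and less RNA per cell cannot be told apart.

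The comparison was also made against the groups that share one label with the double-labelled libraries, chosen after the values had been seen. Against untreated TBK1-cKD control, 7 of 7 members were called higher, where 7.80% of genes were. H2-M2 changed by 5.60 ± 0.11, H2-Q4 by 1.45 ± 0.07 and H2-K1 by 1.17 ± 0.09 on the log2 scale. Against untreated TBK1-WT IKKe knockout, 6 of 7 were called higher, where 6.36% of genes were. H2-M2 changed by 6.96 ± 0.12, H2-Q4 by 0.75 ± 0.07 and H2-K1 by 0.67 ± 0.09, and H2-M3 did not pass (0.21 ± 0.07, adjusted p = 0.0719). H2-T23 (0.36 ± 0.10) did not pass without double-labelled replicate 1 (0.30) or TBK1-WT IKKe knockout replicate 1 (0.31) or 2 (0.36). These comparisons share the double-labelled libraries and are not independent of each other.

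Differences with a single label were smaller. In untreated TBK1-WT IKKe knockout macrophages 0 of 7 members were called, where edgeR called 0% of all genes. By unadjusted p below 0.05 there were 3 members, where 2.87% of genes were, and DESeq2 called 0 members. The log2 changes of these 3 were 0.35 ± 0.10 for H2-T23, 0.29 ± 0.07 for H2-Q4 and 0.26 ± 0.09 for H2-K1. The knockout libraries lay above the TBK1-WT control libraries for 6 members, all but H2-M2, and for 8.34% of all genes. In untreated TBK1-cKD control macrophages H2-M2 was called higher, where 2.40% of genes were, and 2 members were called lower, where 2.65% of genes were. These were H2-Q4, at 16.7, 19.2 and 18.7 RPKM in TBK1-cKD control against 23.8, 21.9 and 27.0 RPKM in TBK1-WT control libraries (-0.41 ± 0.07, adjusted p = 0.00103), and H2-M3 (-0.26 ± 0.07, adjusted p = 0.0401). The H2-Q4 values of the groups did not overlap. H2-M3 no longer passed when any one of 5 of the 6 libraries was left out, all but TBK1-cKD control replicate 3, with values of -0.27 to -0.21, or without a count filter (-0.27). H2-K1 (-0.23 ± 0.09), B2m (-0.22 ± 0.08), H2-T23 (-0.14 ± 0.10) and H2-D1 (-0.10 ± 0.10) did not pass, with adjusted p-values of 0.129 to 0.821. Fitted on the 6 libraries of this pair alone, B2m (adjusted p = 0.00128) and H2-K1 (0.00309) also passed. Of the markers that were tested, 2 of 8 macrophage, 2 of 3 neutrophil and 2 of 5 stromal genes were called lower in untreated TBK1-cKD control macrophages. The stromal markers summed to 19.0 to 23.7 CPM in TBK1-cKD control and 34.9 to 41.8 CPM in TBK1-WT control libraries, and the neutrophil markers to 0.122 to 0.364 CPM in TBK1-cKD control and 2.02 to 3.05 CPM in TBK1-WT control libraries. Their part in the result was not tested.

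**Figure D3:**
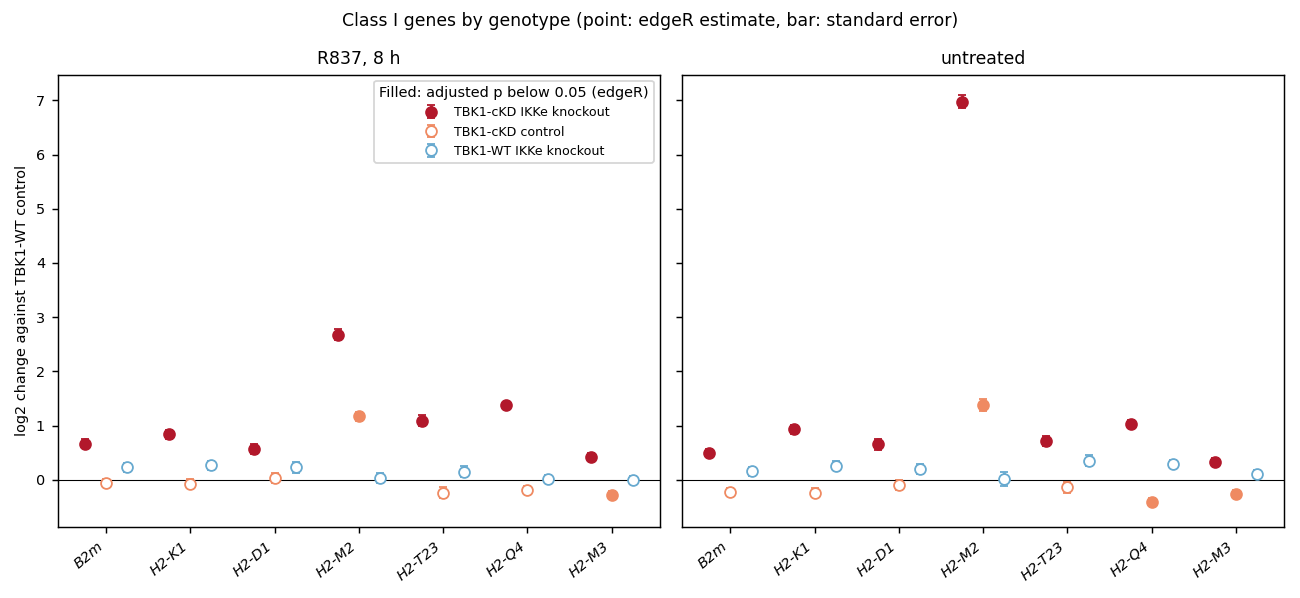
The log2 change against TBK1-WT control (vertical axis) of each gene in the other 3 genotypes, R837 at the left and untreated at the right; points are edgeR estimates, bars standard errors, and filled points passed an adjusted p of 0.05. All 7 double-labelled points are filled and above 0 in both panels, with untreated H2-M2 at 6.98.

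After R837 the same comparison gave 7 of 7 members higher in double-labelled than in TBK1-WT control macrophages, where 16.7% of genes were called higher. The libraries were apart for all 7, as they were in this direction for 17.6% of genes. H2-Q4 was 85.1, 81.3 and 90.8 RPKM in double-labelled and 32.7, 34.0 and 32.7 RPKM in TBK1-WT control libraries. The groups were apart, and the log2 change was 1.37 ± 0.07 (2.59-fold, adjusted p = 3.80e-12, edgeR). H2-T23 was 222.2, 219.7 and 211.3 RPKM in double-labelled and 99.1, 106.7 and 101.3 RPKM in TBK1-WT control libraries, also apart, a change of 1.09 ± 0.10 (adjusted p = 2.23e-08). H2-K1 was 1802, 1804 and 1532 RPKM in double-labelled and 798.6, 1061 and 1015 RPKM in TBK1-WT control libraries, a change of 0.84 ± 0.09 (adjusted p = 1.14e-07). In both groups of H2-K1 values the lowest library was the one of high nuclear RNA level. B2m rose by 0.67 ± 0.08, H2-D1 by 0.57 ± 0.10 and H2-M3 by 0.41 ± 0.07. Fitted on the 6 libraries of the pair alone, H2-D1 did not pass (0.56, adjusted p = 0.0676, edgeR). Without a scaling factor these changes were lower by a median of 0.206, and all 7 were still called. Among R837 libraries of low nuclear RNA level only, 2 double-labelled against 2 TBK1-WT control, 7 of 7 were again called higher, with H2-M2 at 2.84, H2-Q4 at 1.31 and H2-K1 at 0.79 on the log2 scale. With 1 library of high level in each group the changes were 2.36, 1.48 and 0.95. The macrophage markers summed to 24717 to 25449 CPM in double-labelled and 26865 to 32523 CPM in TBK1-WT control libraries; their part was not tested.

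Against R837 TBK1-cKD control, 7 of 7 members were higher in double-labelled macrophages, where 18.3% of genes were, with log2 changes of 0.53 ± 0.10 (H2-D1) to 1.56 ± 0.07 (H2-Q4). Against R837 TBK1-WT IKKe knockout, 7 of 7 were higher, where 16.5% of genes were, with changes of 0.34 ± 0.10 (H2-D1) to 2.65 ± 0.09 (H2-M2); H2-D1 did not pass without double-labelled replicate 2 (0.28), without a scaling factor (0.19) or in the 6 libraries of the pair alone (0.33). In R837 TBK1-WT IKKe knockout macrophages against TBK1-WT control, edgeR called 0 of 7 members in either direction, where it called 1.85% of genes. By unadjusted p below 0.05 there were 3, where 13.7% of genes were, and DESeq2 called 0 members. Of these 3, H2-K1 stood at 0.27 ± 0.09 (adjusted p = 0.147) and B2m at 0.23 ± 0.08 (0.179), and H2-K1 passed without TBK1-WT control replicate 2 (0.35). In R837 TBK1-cKD control macrophages 1 member was higher, H2-M2, where 4.48% of genes were, and 1 was lower, H2-M3 (-0.28 ± 0.07, adjusted p = 0.0213), where 4.41% of genes were. H2-T23 (-0.24 ± 0.10) and H2-Q4 (-0.18 ± 0.07) did not pass. H2-M3 no longer passed without TBK1-cKD control replicate 2 (-0.20) or without TBK1-WT control replicate 1 (-0.22), without a count filter (-0.28), in the pair alone (-0.28) or in libraries of low nuclear RNA level (-0.21), and H2-T23 passed without TBK1-cKD control replicate 3 (-0.37). The stromal markers, 3 of 5 called lower, summed to 22.9 to 27.1 CPM in R837 TBK1-cKD control and 35.8 to 52.3 CPM in R837 TBK1-WT control libraries, and their part was not tested.

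Whether the change with the IKKe label depended on the TBK1 label was tested as an interaction: the log2 change of double-labelled against TBK1-cKD control, minus that of TBK1-WT IKKe knockout against TBK1-WT control. In untreated macrophages, where this test was added after the values had been seen, the interaction was called positive for 7 of 7 members and 3.61% of genes. H2-M2 stood at 5.58 ± 0.17 (47.9-fold, adjusted p = 5.31e-15, edgeR), H2-Q4 at 1.16 ± 0.10, H2-K1 at 0.91 ± 0.12 and B2m at 0.56 ± 0.11. H2-D1 (0.55 ± 0.14), H2-T23 (0.50 ± 0.14) and H2-M3 (0.48 ± 0.10) were smaller. H2-T23 did not pass when any one of 7 of the 12 libraries was left out (0.39 to 0.52): double-labelled replicates 1 and 3, TBK1-cKD control replicates 1 and 2, TBK1-WT IKKe knockout replicates 1 and 2 and TBK1-WT control replicate 3. H2-D1 did not pass (0.51 to 0.53) without double-labelled replicate 1, TBK1-cKD control replicate 2, TBK1-WT IKKe knockout replicate 1 or TBK1-WT control replicate 3. After R837, the interaction was called positive for 6 of 7 members and 13.3% of genes. H2-Q4 stood highest, at 1.54 ± 0.10 (adjusted p = 5.10e-09), followed by H2-M2 at 1.48 ± 0.13, H2-T23 at 1.18 ± 0.14, H2-M3 at 0.70 ± 0.10, H2-K1 at 0.64 ± 0.12 and B2m at 0.49 ± 0.11. H2-D1 did not pass (0.30 ± 0.14, adjusted p = 0.119). H2-D1 passed without double-labelled replicate 3 (0.41) or without TBK1-WT control replicate 1 (0.44). Both are of high nuclear RNA level, and among the R837 libraries of low level all 7 members passed, with H2-D1 at 0.54.

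R837 raised H2-M2 in every genotype, and by the smallest fold change in double-labelled macrophages. In mean RPKM it rose from 168 to 276 in double-labelled and from 3.46 to 96.96 in TBK1-cKD control macrophages. The means rose from 1.34 to 44.1 RPKM in TBK1-WT IKKe knockout and from 1.33 to 43.1 RPKM in TBK1-WT control macrophages. By these means the rise in RPKM was the largest in double-labelled macrophages, which was not tested. The log2 change of R837 against untreated was 0.72 ± 0.09 (1.64-fold) in double-labelled macrophages. It was 4.80 ± 0.11 (27.9-fold) in TBK1-cKD control, 5.03 ± 0.12 (32.6-fold) in TBK1-WT IKKe knockout and 5.01 ± 0.11 (32.3-fold) in TBK1-WT control macrophages. All of these passed, with adjusted p-values of at most 3.36e-07 (edgeR). The response of double-labelled macrophages differed from that of TBK1-WT control by -4.30 ± 0.14 (adjusted p = 1.74e-14), and the untreated level from which it started was the one given above. Against the same untreated libraries, the single R837 library of high nuclear RNA level stood higher by 0.59 in double-labelled and by 5.20 in TBK1-WT control macrophages. The double-labelled one was replicate 3, whose Ikbke level was not below that of R837 TBK1-cKD control libraries. The responses of TBK1-cKD control (-0.21 ± 0.15, adjusted p = 0.608) and TBK1-WT IKKe knockout macrophages (0.017 ± 0.16, adjusted p = 0.991) did not pass the same test against TBK1-WT control.

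For all members, R837 libraries were called higher for 7 of 7 in double-labelled (31.6% of genes), 7 of 7 in TBK1-cKD control (31.6%), 6 of 7 in TBK1-WT IKKe knockout (32.4%) and 7 of 7 in TBK1-WT control macrophages (30.6%). H2-K1 changed by 0.78 ± 0.09 in double-labelled, 1.04 ± 0.09 in TBK1-cKD control, 0.88 ± 0.09 in TBK1-WT IKKe knockout and 0.88 ± 0.09 in TBK1-WT control macrophages on the log2 scale. B2m levels were 5853, 6053 and 5060 RPKM in R837 double-labelled libraries, against 3540, 3425 and 3456 RPKM in untreated ones, and 3048, 3834 and 3808 RPKM in R837 TBK1-WT control libraries, against 2402, 2412 and 2573 RPKM in untreated ones. The R837 libraries lay above the untreated in both, and the changes in the 4 genotypes were 0.70, 0.70, 0.61 and 0.53 in the order just given for H2-K1. H2-Q4 changed by 0.79, 0.68, 0.18 and 0.45, H2-T23 by 0.83, 0.36, 0.25 and 0.46, and H2-D1 by 0.36, 0.58, 0.48 and 0.45 in the same order. H2-M3 changed by 0.29, 0.19 and 0.20 in double-labelled, TBK1-cKD control and TBK1-WT control macrophages and did not pass in TBK1-WT IKKe knockout macrophages (0.079 ± 0.07, adjusted p = 0.343). In TBK1-WT IKKe knockout macrophages H2-Q4 did not pass without R837 replicate 1 (0.15) or untreated replicates 1 (0.17) or 3 (0.17). There H2-T23 did not pass without R837 replicates 1 (0.23) or 3 (0.25) or untreated replicates 1 (0.20) or 2 (0.25). H2-M3 did not pass without TBK1-cKD control R837 replicates 1 (0.16) or 3 (0.14) or untreated replicate 1 (0.13), or without untreated TBK1-WT control replicate 2 (0.20). The smaller of these responses changed with the scaling of libraries and with the handling of nuclear RNA level. That level was high in all untreated and low in 10 of the 12 R837 libraries. Without a scaling factor the members' values were lower by a median of 0.392 in double-labelled, 0.289 in TBK1-cKD control, 0.310 in TBK1-WT IKKe knockout and 0.267 in TBK1-WT control macrophages. H2-M2, H2-K1 and B2m still passed in all 4 genotypes, H2-M3 turned to values below 0 in all 4, H2-D1 did so in double-labelled and H2-Q4 and H2-T23 in TBK1-WT IKKe knockout macrophages. H2-D1 in both TBK1-WT genotypes (0.17 in IKKe knockout, 0.18 in control) and H2-T23 in both control genotypes (0.070 in TBK1-cKD, 0.19 in TBK1-WT) no longer passed. With a term for nuclear RNA level, H2-D1 did not pass in double-labelled (0.092) or TBK1-WT IKKe knockout macrophages (0.088). Nor did H2-T23 in TBK1-cKD control (0.29) or TBK1-WT IKKe knockout macrophages (0.19). In TBK1-cKD control and TBK1-WT IKKe knockout macrophages the level was high in every untreated and low in every R837 library. The term came from R837 double-labelled and TBK1-WT control libraries, so it cannot part level from R837 in those genotypes. In libraries of high level only, with 1 R837 library a group, H2-D1 did not pass in double-labelled (0.13) or TBK1-WT control macrophages (0.14). Without a count filter, H2-M3 in TBK1-cKD control (0.20) and TBK1-WT control (0.20) and H2-Q4 in TBK1-WT IKKe knockout macrophages (0.19) did not pass, nor did H2-M3 in TBK1-cKD control (0.24) and TBK1-WT control (0.20) in the 6 libraries of the pair alone.

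**Figure D4:**
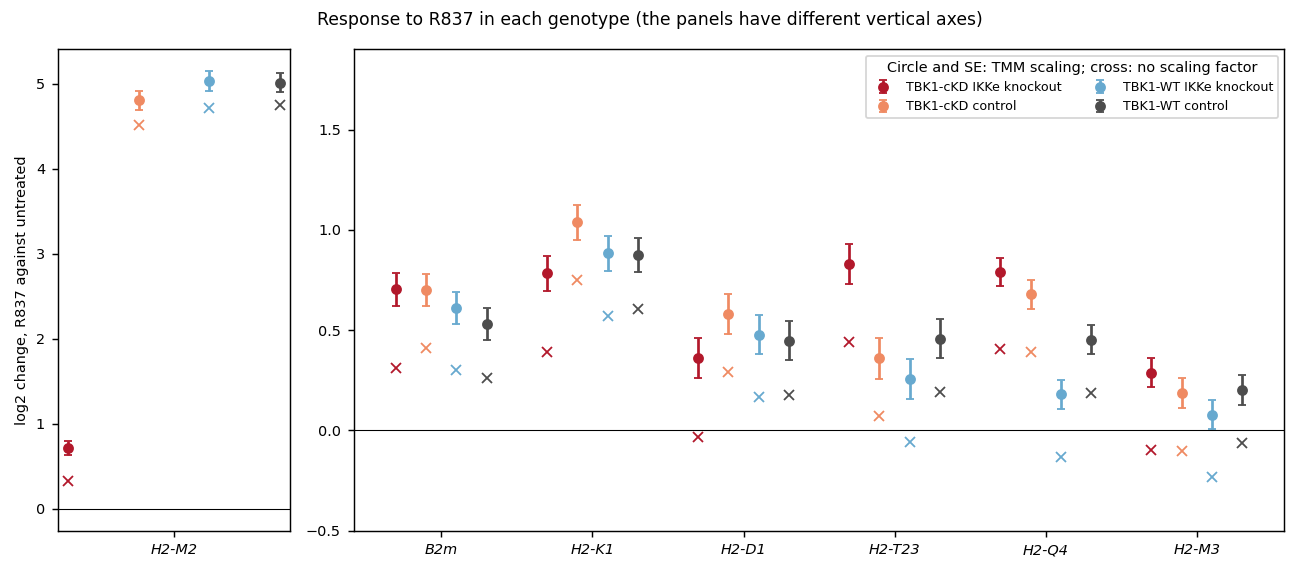
The log2 change of R837 against untreated (vertical axes, which differ between the panels) in each genotype, H2-M2 at the left and the other genes at the right; circles with standard errors are the TMM-scaled edgeR estimates and crosses the values without a scaling factor. H2-M2 stands at 0.72 in double-labelled macrophages and at 4.80 to 5.03 in the other 3 genotypes, and all H2-M3 crosses lie below 0.

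Beside H2-M2, the response to R837 differed between double-labelled and TBK1-WT control macrophages for 1 more member. H2-Q4 responded more by 0.34 ± 0.10 (adjusted p = 0.0214, edgeR), so that 1 of 7 members was called higher, where 7.38% of genes were, and 1 lower, where 9.96% of genes were. The value for H2-T23 was 0.37 ± 0.14 (adjusted p = 0.0775), and it passed in 2 of 18 alternatives. H2-Q4 did not pass without untreated double-labelled replicate 2 (0.33) or 3 (0.31) or without untreated TBK1-WT control replicate 3 (0.25), nor without a count filter (0.32) or a scaling factor (0.22). In the responses of TBK1-cKD control and of TBK1-WT IKKe knockout macrophages, edgeR called 0 of 7 members as different from TBK1-WT control, where 0.879% and 0.245% of genes were called. In each of these comparisons 1 member had an unadjusted p below 0.05, where 10.6% of genes did for TBK1-cKD control and 6.87% for TBK1-WT IKKe knockout, and DESeq2 called 0 members.

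Genes of the class I pathway that are not members were described from 3 lists. Over all genes, 8.52% were called higher in untreated and 16.7% in R837 double-labelled than in like-treated TBK1-WT control macrophages. Of 13 genes of peptide loading and the immunoproteasome, all tested, 10 were higher and 1 lower in untreated double-labelled than in untreated TBK1-WT control macrophages, with a median log2 change of 0.55 against 0.0037 over all genes. The 3 of largest change were Tapbpl, a tapasin relative that edits peptides (0.82 ± 0.06), the TAP subunit Tap1 (0.72 ± 0.13) and the proteasome activator Psme2 (0.71 ± 0.15). The lower one was the chaperone Pdia3 (-0.19), which was named after its value had been seen. After R837, 10 of 13 were higher and 0 lower, with a median of 0.82 against -0.0137 over all genes. Tap2 (1.34 ± 0.09), Tap1 (1.12 ± 0.13) and the immunoproteasome subunit Psmb9 (0.997 ± 0.120) led them.

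Of 15 regulators of class I transcription, 5 were higher and 1 lower in untreated double-labelled macrophages, with a median of 0.15. Irf1, an interferon-induced activator of class I genes, changed by 1.22 ± 0.11, and Stat2 by 0.70 ± 0.16. After R837, 7 were higher and 1 lower, with a median of 0.21, and among them the transactivator Nlrc5 changed by 0.96 ± 0.19 and Stat2 by 0.77 ± 0.16. Of 24 other class I and class I-like genes, 12 passed the count filter, and 5 of them were higher and 0 lower in untreated double-labelled macrophages, led by H2-Q7 (2.17 ± 0.17), H2-Q6 (2.02 ± 0.14) and H2-Q5 (1.27 ± 0.23). The mean levels of H2-Q7 were 10.3 RPKM in untreated double-labelled and 2.32 RPKM in untreated TBK1-WT control libraries. After R837, 7 were higher and 1 lower, again led by H2-Q6 (2.34 ± 0.14), H2-Q7 (1.94 ± 0.15) and H2-Q5 (1.76 ± 0.22). In untreated TBK1-cKD control macrophages 0 of these 12 were higher and 3 lower, led by H2-Q6 (-1.53) and H2-Q7 (-1.11). After R837, 0 were higher and 2 lower in TBK1-cKD control macrophages. Over all genes, 2.65% were called lower in untreated and 4.41% in R837 TBK1-cKD control macrophages. In TBK1-WT IKKe knockout macrophages none of the 3 lists had a called gene when untreated, and after R837 1 of the 12 other class I genes was higher. The H2-Q genes share long stretches with each other and with H2-K1 and H2-D1, so their separate values are uncertain.

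The lists were also described for R837 against untreated in double-labelled and TBK1-WT control macrophages. In double-labelled macrophages R837 raised 11 of the 13 loading genes and lowered 1, with a median log2 change of 1.18, and in TBK1-WT control macrophages it raised 10 and lowered 1, with a median of 0.87. Psme2 led the loading genes in both, at 2.29 ± 0.15 in double-labelled and 2.48 ± 0.15 in TBK1-WT control macrophages. Of the 15 regulators, R837 raised 9 and lowered 1 in double-labelled and raised 7 and lowered 4 in TBK1-WT control macrophages. Of the 12 other class I genes it raised 6 and lowered 3 in double-labelled and raised 5 and lowered 4 in TBK1-WT control macrophages. Of all genes, R837 raised 31.6% and lowered 34.8% in double-labelled and raised 30.6% and lowered 32% in TBK1-WT control macrophages. Nfkb1, which encodes an NF-kB subunit, led the regulators in both, at 1.63 ± 0.06 in double-labelled and 1.44 ± 0.06 in TBK1-WT control macrophages. Irf1 was an exception: its mean was 35.8 ± 2.66 RPKM (SD, n = 3) in R837 double-labelled libraries against 40.3 ± 2.82 RPKM in untreated ones, and 38.0 ± 8.12 RPKM in R837 TBK1-WT control libraries against 17.3 ± 0.438 RPKM in untreated ones. R837 changed it by 1.14 ± 0.11 in TBK1-WT control macrophages, and in double-labelled macrophages it did not pass (-0.17 ± 0.10, adjusted p = 0.152, edgeR). The responses differed by -1.31 ± 0.15 (adjusted p = 1.33e-06). The response to R837 was called larger in double-labelled than in TBK1-WT control macrophages for 7.38% of all genes and smaller for 9.96%. Over the 3 lists, 5 genes responded more in double-labelled macrophages, namely Tap2, Psmb8, Psme1, Nfyb and H2-T22, and 2 less, Irf1 and Hfe. Of these, Tap2 differed by 0.73 ± 0.13 and H2-T22 by 0.73 ± 0.19. Mr1, which encodes a class I-like molecule for vitamin B metabolites, fell with R837 in both, by 2.14 in double-labelled and 2.05 in TBK1-WT control macrophages on the log2 scale.

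The interaction between the labels was called positive for 3.61% of all genes in untreated macrophages. In the lists it was called positive for 6 loading genes, 5 regulators and 5 other class I genes, and negative for 0. The largest were H2-Q6 (3.03 ± 0.21), H2-Q7 (2.63 ± 0.26), Irf1 (1.42 ± 0.15) and Tap1 (0.81 ± 0.18). After R837 it was called positive for 7 in each list, against 13.3% of all genes, and negative for 1 regulator. There Nlrc5 stood at 1.66 ± 0.27, Tap2 at 0.96 ± 0.13 and H2-Q6 at 2.44 ± 0.19. Nlrc5 had a mean of 19.95 ± 5.32 RPKM in R837 double-labelled and 10.2 ± 4.02 RPKM in R837 TBK1-WT control libraries (SD, n = 3 each).

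The members differed among themselves in how closely they ran together over the 24 libraries. Pearson's r of log2 CPM was 0.991 for B2m and H2-K1 and 0.980 for H2-K1 and H2-D1. Pairs without H2-M2 had r between 0.762 and 0.991, and pairs with H2-M2 between 0.606 and 0.870. Within the 12 untreated libraries the ranges were 0.914 to 0.995 without and 0.619 to 0.846 with H2-M2, and within the 12 R837 libraries 0.595 to 0.995 and 0.570 to 0.831. The libraries share their groups, depth and scaling, so these are descriptions. Outside the members, the genes of most similar pattern to B2m were H2-Q7 (r = 0.984), Lgals3bp and Npc2, and to H2-K1 they were H2-Q7 (0.990), the class II chain gene H2-Ab1 (0.987) and Ifi205. For H2-D1 they were the class II invariant chain gene Cd74 (0.961), H2-Ab1 and Npc2. H2-M2 stood beside other genes: the gelatinase gene Mmp9 (0.984, and 0.990 over untreated and 0.962 over R837 libraries), Jdp2, of the AP-1 factor family (0.975, 0.996 and 0.837), and Adgrf1 (0.969). H2-T23 and H2-Q4 both had Il18bp, which encodes an interleukin 18 antagonist (0.975 and 0.954), and the antiviral Bst2 (0.960 and 0.943) among their 3 genes. H2-M3 had H2-Q5 (0.948), Bst2 (0.944) and H2-Q6 (0.941).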

How the data were processed

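Bulk RNA of macrophages grown from bone marrow was sequenced in single-end reads of 50 bases from a TruSeq RNA v2 library, per the labels' protocols; that kit does not mark strand. The protocols state R837 treatment in every record, so treated and untreated libraries were told apart by their titles. Reads were aligned with GSNAP to GRCm38, as listed in the submitters' processing notes. How reads were counted, against which annotation release and after which filters was not stated. The deposited counts are whole numbers per Ensembl gene, per the file headers. The deposited RPKM relates a count to gene width and to a total above the sum of gene counts; it was not used for levels, which were computed from counts, deposited widths and TMM-scaled totals. Of 52636 genes, 233 had no symbol and held 0.0187% of counts. No per-sample column was left unused.

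Counts were tested with edgeR 4.0.16 (R 4.3.3): quasi-likelihood test, all 24 libraries, 1 mean per group, TMM, edgeR's expression filter (minimum count 10, minimum total 15; 14681 genes kept) and 16 residual degrees of freedom. P-values were adjusted by Benjamini-Hochberg over all genes in each comparison, with a threshold of 0.05. The code was checked on simulated counts. Alternatives were RLE size factors, DESeq2 1.42.0, no count filter, a term for nuclear RNA level, libraries of 1 level, the 6 libraries of a pair and leaving out each library. Fits with no scaling factor, fits of low-level R837 libraries and 3 comparisons (marked in the text) were added after seeing the data. The members and lists were chosen with earlier results of these data known. The rule for named genes took all members, the 3 called genes of largest change in each list and the 3 genes of highest r with each member. Some genes named by this rule are not reported here. Intervals from counting error alone were not used; untreated H2-M2 had 46 to 106 counts in TBK1-WT libraries.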

Additional observations from a re-analysis of the deposited data

Results flagged for a closer look

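A response or an effect of one label that differed between groups, by a test of the difference itself (edgeR, adjusted over all genes), is listed here. The R837 response of double-labelled macrophages differed from that of TBK1-WT control by -4.30 for H2-M2 and by 0.34 for H2-Q4 on the log2 scale. The H2-M2 responses started from untreated means of 168 RPKM in double-labelled and 1.33 RPKM in TBK1-WT control libraries. The effect of the IKKe label differed between TBK1-cKD and TBK1-WT macrophages after R837 by 0.49 for B2m, 0.64 for H2-K1, 1.48 for H2-M2, 0.70 for H2-M3, 1.54 for H2-Q4 and 1.18 for H2-T23. In untreated macrophages it differed by 0.56 for B2m, 0.91 for H2-K1, 0.55 for H2-D1, 5.58 for H2-M2, 0.48 for H2-M3, 1.16 for H2-Q4 and 0.50 for H2-T23. These values rest on the same double-labelled libraries, so they are not independent of each other. In those libraries Ikbke RNA was not below that of TBK1-cKD control when untreated and in 1 of 3 R837 libraries, replicate 3. Replicate 3 was of high nuclear RNA level, and no R837 TBK1-cKD control library was. Over the R837 groups Ikbke was called lower in double-labelled than in TBK1-cKD control macrophages (log2 change -0.79 ± 0.30, adjusted p = 0.0449, edgeR). When untreated the difference did not pass (0.11 ± 0.30, adjusted p = 0.929). RNA counts do not settle the labels.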

How the results depend on the processing

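No paired analysis was possible because the labels carry no replicate numbers, and which libraries came from the same mouse is not stated; replicates are numbered in the order of the records. The 107 log2 changes of members that were called or named in the text were followed, and 26 that were neither were left out. Of the 107, 105 kept direction and side of the threshold under DESeq2 and 107 under RLE size factors. The number was 101 without a count filter, 97 with a term for nuclear RNA level and 87 without a scaling factor. All 7 members stayed higher in untreated double-labelled than in untreated TBK1-WT control macrophages under every alternative run, and after R837 6 or 7 did, with H2-D1 lost in the 6 libraries of the pair alone. The difference of R837 response between these groups (2 members called) had 3 under DESeq2, 1 without a count filter and 1 without a scaling factor. It had 4 with the nuclear RNA term and 1 to 2 with a library left out. TBK1-cKD control against TBK1-WT control after R837 (2 called) had 1 without a count filter, 1 in the 6 libraries of the pair, 4 with the nuclear RNA term, 4 without a scaling factor and 1 to 3 with a library left out. The same comparison in untreated cells (3 called) had 5 in libraries of high nuclear RNA level, 5 with that term, 5 in the pair alone, 5 without a scaling factor and 2 to 3 with a library left out. TBK1-WT IKKe knockout against TBK1-WT control after R837 (0 called) had 0 to 1 with a library left out. The R837 response of TBK1-WT control (7 called) had 4 without a scaling factor.

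Signs that turned without a scaling factor were those of the R837 responses of H2-D1 in double-labelled (-0.033), H2-M3 in double-labelled (-0.10), TBK1-cKD control (-0.10), TBK1-WT IKKe knockout (-0.23, adjusted p = 0.0161 by edgeR) and TBK1-WT control (-0.062), and H2-Q4 (-0.13) and H2-T23 (-0.055) in TBK1-WT IKKe knockout macrophages. For H2-M2 in TBK1-WT IKKe knockout against TBK1-WT control, values near 0 turned to -0.032 in the difference of response, -0.032 after R837 and -0.00068 untreated. With a library left out these ranged from -0.062 to 0.12, from -0.046 to 0.14 and from -0.048 to 0.094. The cause of these changes was not tested.

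Counts over all genes moved more. Of calls in the R837 responses, 25.1% to 29.2% were higher without a scaling factor, against 45.8% to 48.9% with TMM. In double-labelled against TBK1-WT control it was 22.6% against 51.8% after R837 and 41.3% against 62.6% in untreated cells, and in the R837 interaction 35.9% against 59.8%. The number of genes called in double-labelled against TBK1-WT control was 2000 in untreated cells and 5461 in the pair alone; after R837 it was 4725, and 2452 in the pair alone. In TBK1-cKD control against TBK1-WT control it was 742 in untreated cells (393 to 3012 over alternatives) and 1305 after R837 (40 to 1838). In TBK1-WT IKKe knockout against TBK1-WT control it was 0 in untreated cells (up to 10) and 272 after R837 (20 to 519). Interactions called 688 genes in untreated cells (533 to 1997) and 3253 after R837 (1614 to 4272). The differences of R837 response from TBK1-WT control called 2546 (1995 to 4420), 129 (47 to 442) and 36 (18 to 146) in double-labelled, TBK1-cKD control and TBK1-WT IKKe knockout macrophages. Against TBK1-cKD control, double-labelled macrophages had 1670 calls in untreated cells (1161 to 4161) and 5067 after R837 (1773 to 5966). Against TBK1-WT IKKe knockout they had 1497 (1024 to 3833) and 4498 (2940 to 5537) calls. Fits in libraries of high nuclear RNA level could not be run where a group had none.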
